A study of Saccharomyces cerevisiae with 12 samples.

Results

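Wild-type budding yeast treated with 5-fluorouracil (FU) was compared directly with untreated yeast that lacks RRP6, both at 40 min after synchronization. The 4 libraries of this comparison, 2 biological replicates of wild type with FU and 2 of rrp6-delta, are 4 of 12 in the series, and all 12026 annotated features of its table of read densities were examined. No control library is shared between the sides, so every difference below is FU minus rrp6 and combines the drug with the deletion. The 2 untreated wild-type libraries at 40 min give the level of a cell with neither, and the FU and rrp6 libraries at 100 min, 2 of each, repeat the comparison in other samples. Total RNA depleted of ribosomal RNA was sequenced with strand information. The dose of FU, the time at which it was added, the way cells were synchronized, the strain background, the mating type and the number of clones were not given in the labels, and only the sample titles name the treatment.

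Rrp6 is a 3′ exonuclease of the nuclear exosome, the complex that trims and degrades RNA in the nucleus. In yeast it is known for destroying cryptic unstable transcripts (CUTs) and for finishing the 3′ ends of small nucleolar RNAs (snoRNAs), which guide chemical modification of ribosomal RNA. Many of these RNAs end through the Nrd1-Nab3-Sen1 complex, which binds short RNA motifs and hands the transcript to the exosome. FU, a pyrimidine analogue used against cancer, is converted into nucleotides that block thymidylate synthesis and enter RNA, where they disturb pseudouridine formation and ribosomal RNA processing; yeast exosome mutants are known to be hypersensitive to it.

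A density is the number of reads of a feature per nucleotide, multiplied by 1 factor per library that sets the total over genes equal. The libraries held 23924773 and 25873312 reads with FU and 26773004 and 27498217 reads in rrp6. RRP6 itself, on chromosome 15 from 326832 to 329033, had densities of 1.96 and 1.72 with FU, 0.0675 and 0.0781 in rrp6 and 1.30 and 1.07 in wild type, which fits the labels. The residue in rrp6 was 209 and 241 reads. Between the replicates, Pearson's r of log2 densities over 5725 genes was 0.951 with FU and 0.990 in rrp6, with genes that are not independent of each other. Among all reads, snoRNAs held 10.1% and 20.9% in FU replicates 1 and 2, 10.3% and 9.99% in the rrp6 replicates, and 11.7% and 20.2% in the wild-type replicates, so replicate 2 stood above replicate 1 in small RNAs both with FU and in wild type.

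CUTs, and non-coding transcripts that start within 1000 nt past a snoRNA gene, were far lower with FU than in rrp6. Genes of glycolysis and iron uptake were among those higher with FU. Of 11485 features with enough reads to test, 3750 were lower with FU (32.7%) and 293 higher (2.55%), by limma with a Benjamini-Hochberg adjusted p under 0.05 over all features. Among 5725 genes 531 were lower (9.28%) and 262 higher (4.58%), whereas among 5760 features outside the genes 3219 were lower (55.9%) and 31 higher (0.538%). The share of 55.9% includes features that reached the limit on low values only through rrp6 libraries, given by class below. For these a fall was built into the selection. A log2 difference of at least 1 (a doubling) was reached by 3159 called features that were lower and by 96 that were higher. These counts rest on the scaling: quantile normalization, which moved the median gene by 0.44, gave 1399 lower and 1557 higher, and 3425 of the 3750 kept their sign. Either rrp6 library mattered, with 2374 lower and 122 higher without rrp6 replicate 1, and 2150 lower and 90 higher without rrp6 replicate 2.

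The CUTs took 0.225% of reads in FU replicate 1 (95% Wilson interval 0.223 to 0.227) and 0.362% in FU replicate 2 (0.359 to 0.364), against 1.70% (1.69 to 1.70) and 1.94% (1.93 to 1.94) in rrp6. In untreated wild type they took 0.140% and 0.194%. The 2 FU libraries lay between wild type and rrp6, and nearer to wild type. The intervals cover counting error only. Of 923 CUTs tested, 806 were lower and 1 higher, and 877 had both FU libraries below both rrp6 libraries (over all features 53.6% did). The CUT median was 2.08 log2 units below the median gene (-2.08), and it was -2.65 in FU replicate 1 and -1.48 in FU replicate 2 when each was set against the rrp6 mean. With quantile normalization 526 CUTs were lower and the median was -1.77; with a pseudocount 10 times larger it was -1.16.

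The other non-coding classes followed with smaller medians, again relative to the median gene of -0.07. XUTs, transcripts that the cytoplasmic exonuclease Xrn1 removes, were lower for 984 and higher for 7 of 1773, with a median of -1.02. SUTs, stable unannotated transcripts, were lower for 406 and higher for 4 of 830 (-0.87). MUTs, first described in meiosis, were lower for 331 of 529 (-1.06), and mSUTs, as the table names them, were lower for 329 and higher for 1 of 625 (-1.01). Dubious open reading frames were lower for 334 and higher for 4 of 697 (-0.83). The shares lower were 55.5% of XUTs, 48.9% of SUTs, 62.6% of MUTs, 52.6% of mSUTs and 47.9% of dubious frames. Over all features outside genes, CUTs included, 55.9% were lower, so only MUTs were above that share. Many of these features overlap one another on the same strand and share reads. Several are nearly silent outside rrp6. Only because of rrp6 libraries did 203 of the 529 MUTs, 138 of the 625 mSUTs and 153 of the 697 dubious frames reach the limit on low values. The same held for 79 of 1773 XUTs, 30 of 830 SUTs, 42 of 923 CUTs, 7 of 287 tRNAs and 66 of 5725 genes. A difference was built into the selection of all these features. Quantile normalization brought the medians of these 5 classes to between -0.44 (SUTs) and -0.52 (MUTs and mSUTs).

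**Figure D1:**
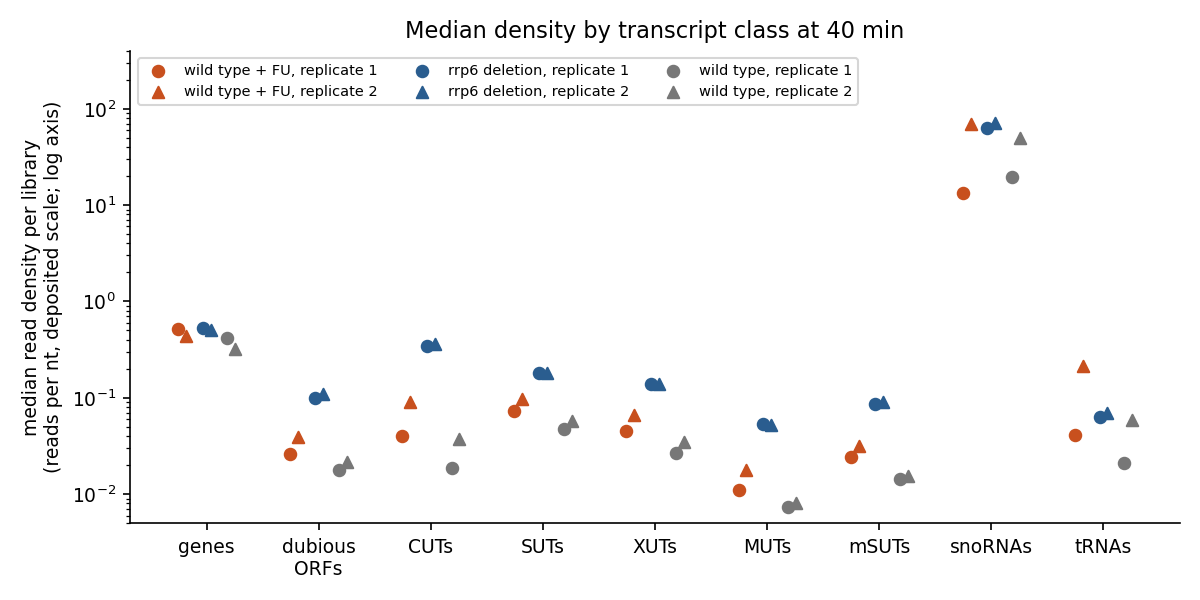
Median read density (reads per nt on the deposited scale, log axis) of each transcript class in each library at 40 min, with wild type with FU in orange, rrp6 in blue and wild type in grey, circles for replicate 1 and triangles for replicate 2. The CUT median was 0.0406 and 0.0915 with FU, 0.341 and 0.363 in rrp6 and 0.0189 and 0.0372 in wild type. The median of the 5725 tested genes was 0.522 and 0.436 with FU, 0.527 and 0.507 in rrp6 and 0.421 and 0.320 in wild type.

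**Figure D2:**
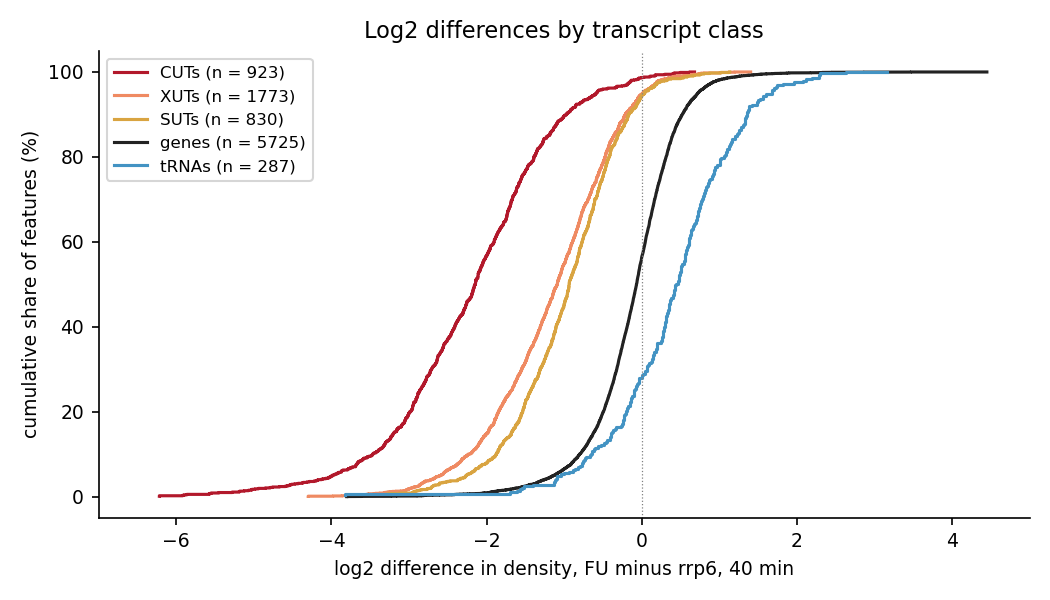
Cumulative share of features (%) against the log2 difference in density, FU minus rrp6, for CUTs, XUTs, SUTs, genes and tRNAs at 40 min. The CUT curve lies farthest left, the gene curve crosses its midpoint at -0.07, and the tRNA curve at 0.46.

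The 6 largest falls outside the genes all lay just past snoRNA genes, on the same strand, a grouping that was noticed after the values were seen and is given as a description. The following windows are shown because the results turn on what follows a snoRNA. Each is the first 140 nt past the 3′ end of the snoRNA, read 5′ to 3′ on the snoRNA strand from the R64 reference, whose start and end equal those of the table for 77 of 77 snoRNAs. Capitals mark GTAA and GTAG, the DNA letters of motifs bound by Nrd1, and TCTT, the letters of a motif bound by Nab3. Overlapping copies were all counted.
SNR45 to CUT433: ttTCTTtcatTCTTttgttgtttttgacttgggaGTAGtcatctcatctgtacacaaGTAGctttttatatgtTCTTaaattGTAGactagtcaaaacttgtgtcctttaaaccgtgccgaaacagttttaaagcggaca
SNR33 to YCR015C: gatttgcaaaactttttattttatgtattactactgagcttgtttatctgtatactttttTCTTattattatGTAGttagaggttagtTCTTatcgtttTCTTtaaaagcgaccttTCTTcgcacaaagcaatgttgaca
SNR5 to HEM4: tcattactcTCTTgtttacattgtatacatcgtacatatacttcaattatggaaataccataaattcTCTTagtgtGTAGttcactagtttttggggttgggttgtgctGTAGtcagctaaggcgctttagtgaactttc
SNR58 to YOL098C: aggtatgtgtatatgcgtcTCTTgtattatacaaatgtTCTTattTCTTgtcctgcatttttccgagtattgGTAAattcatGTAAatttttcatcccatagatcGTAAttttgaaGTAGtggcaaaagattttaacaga
SNR85 to NUP188: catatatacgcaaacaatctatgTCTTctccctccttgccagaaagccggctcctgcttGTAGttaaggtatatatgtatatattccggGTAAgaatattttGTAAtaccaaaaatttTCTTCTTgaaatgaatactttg
These windows are chr16:821904-822043 on the plus strand, chr3:142224-142363 on the minus strand, chr15:842607-842746 on the plus strand, chr15:135948-136087 on the minus strand and chr13:67628-67767 on the minus strand. They end before the downstream feature begins, at 152 nt (CUT433), 194 nt (YCR015C), 211 nt (HEM4), 250 nt (YOL098C) and 219 nt (NUP188). On the strand of the feature, the Nrd1 letters were found in 71.4% of the 77 windows past snoRNAs and in 66.5% of 5774 windows of the same length before nuclear genes. The Nab3 letters were in 89.6% and 56.3%, and both kinds in 66.2% and 35.6%, of the windows past snoRNAs and before genes. On the opposite strand, the Nrd1 letters were in 66.2% and 62.9%, and the Nab3 letters in 50.6% and 76.6%, of the windows past snoRNAs and before genes. The first 3 windows precede features that fell by 3.79 or more on the log2 scale, and the last 2 precede genes that did not pass the test, yet SNR58 and SNR85 have 3 Nab3 motifs each and 4 and 3 Nrd1 motifs. Windows before the 16 downstream genes that were lower held a mean of 2.25 Nrd1 and 2.25 Nab3 motifs, and windows before the other 16 held 2.12 and 2.31, so these letters did not separate them.

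CUT433, past the C/D snoRNA gene SNR45 on chromosome 16 (822055 to 822167), had densities of 0.537 and 1.96 with FU, 70.8 and 84.6 in rrp6, and 0.150 and 0.398 in wild type. Both rrp6 libraries were far above the other 4. Its log2 difference was -6.22 ± 0.57 (SE; limma adjusted p = 0.000231). CUT222, past SNR3, was at 0.463 and 0.608 with FU and at 26.9 and 40.0 in rrp6 (-5.92 ± 0.57). CUT137 past SNR10 (-5.90 ± 0.45), CUT307 past SNR11 (-5.86 ± 0.44), the dubious frame YCL007C past SNR43 (-5.73 ± 0.49) and CUT681 past SNR37 (-5.58 ± 0.45) complete the 6 largest falls. CUT222, CUT137 and CUT307 meet other CUTs on their strand end to end, with 1 nt in common. In all, 43 CUTs, SUTs, XUTs, MUTs and mSUTs start within 1000 nt past a snoRNA. Of these 42 were lower, beside 60.7% of the other 4637 features of these classes and 55.9% of features outside genes. Their median was -4.22 relative to the median gene, beside -1.15 for the other 4637. Most of the 43, 37 in number, are CUTs, a class that was mostly lower in any case. Among these 37 CUTs 36 were lower, with a median of -4.40. Among the other 886 CUTs 770 were lower (86.9%), with a median of -2.04.

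**Figure D3:**
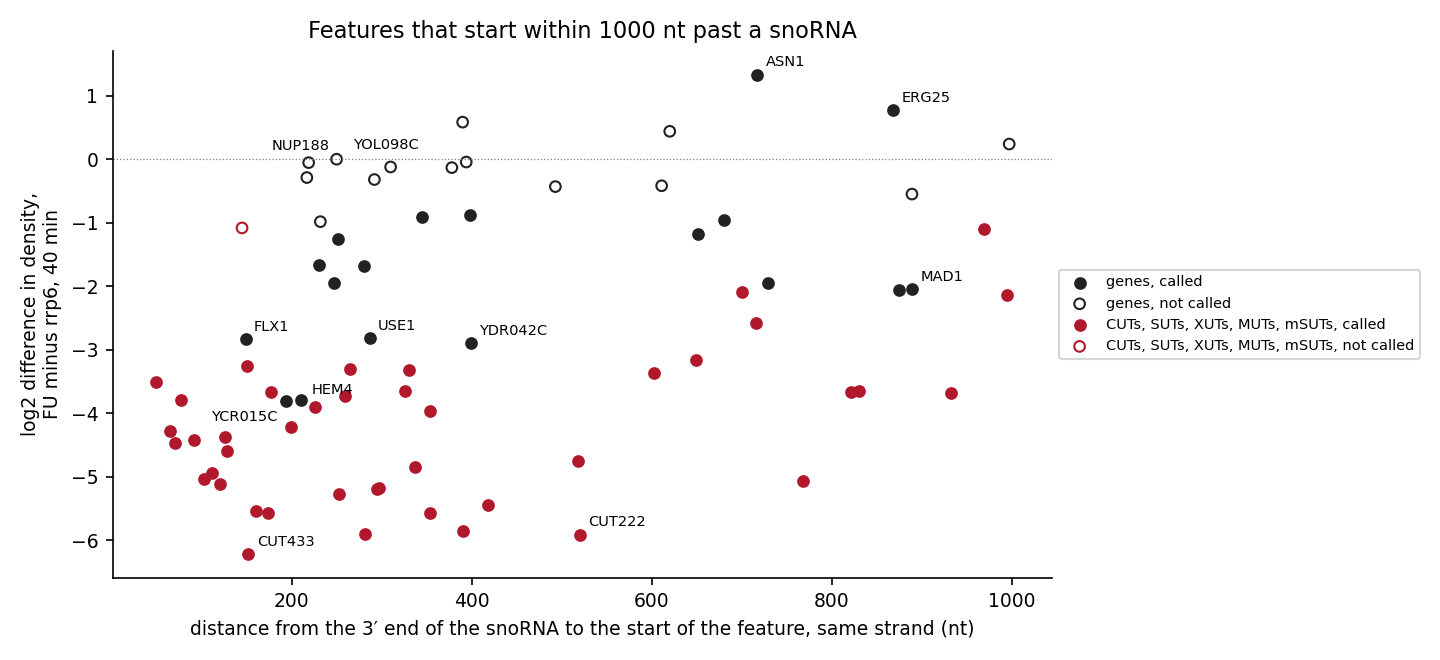
Log2 difference in density, FU minus rrp6 at 40 min, against the distance in nt from the 3′ end of a snoRNA to the start of the feature on the same strand, for genes (black) and non-coding transcripts (red); filled points passed the test. The non-coding transcripts lie at or below -1.08 and the 13 genes within 300 nt lie below 0 or level with it. Beyond 300 nt, ASN1 and ERG25, both called, lie above 0. So do RPS14A (390 nt), MDM30 (620 nt) and CAF40 (997 nt), which were not called.

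Protein-coding genes behind snoRNAs took part in this. YCR015C, a gene without a standard name on chromosome 3 (141217 to 142170), had the largest fall of any gene, with densities of 0.320 and 0.354 with FU, 4.70 and 5.02 in rrp6, and 0.273 and 0.325 in wild type. The FU and wild-type libraries overlapped and the rrp6 libraries lay far above them; the log2 difference was -3.80 ± 0.17 (adjusted p = 2.51e-05). HEM4, on chromosome 15 (842817 to 843644), encodes uroporphyrinogen III synthase of heme synthesis and was at 0.180 and 0.189 with FU, 2.40 and 3.05 in rrp6, and 0.162 and 0.158 in wild type (-3.79 ± 0.23). The same order was seen for FLX1, a mitochondrial flavin carrier 149 nt past SNR68, at 1.23 and 1.15 with FU, 9.23 and 7.96 in rrp6, and 0.307 and 0.395 in wild type (-2.84 ± 0.17). USE1, a SNARE protein 287 nt past SNR82, was at 0.735 and 0.451 with FU and 4.02 and 4.26 in rrp6 (-2.82 ± 0.26), and YDR042C, 399 nt past SNR47, at 1.01 and 1.21 with FU and 6.61 and 10.6 in rrp6 (-2.90 ± 0.35).

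Not every gene behind a snoRNA differed in this way. Of 32 genes that start within 1000 nt past one, 16 were lower and 2 higher; among all other genes 515 of 5693 were lower (9.05%). Within 300 nt 8 of 13 were lower and 0 higher, with a median of -1.59 relative to the median gene, and farther on, up to 1000 nt, 8 of 19 were lower and 2 higher, with a median of -0.36. NUP188, a nuclear pore protein, had 1.20 and 1.22 with FU and 1.27 and 1.24 in rrp6 (-0.05 ± 0.15, adjusted p = 0.824), and YOL098C had 1.71 and 1.25 with FU and 1.43 and 1.5005 in rrp6 (adjusted p = 0.998). The sign of these 2 values changes with the scaling. The genes higher with FU were ASN1, an asparagine synthetase 717 nt past SNR45 and so beyond CUT433, at 6.13 and 7.75 with FU and 2.97 and 2.52 in rrp6 (1.33 ± 0.26), and ERG25, a sterol methyl oxidase 868 nt past SNR48, at 9.74 and 12.5 with FU and 6.58 and 6.33 in rrp6 (0.78 ± 0.18). ERG25 lost its call without FU replicate 2 (0.59, adjusted p = 0.0518) or rrp6 replicate 2 (0.75, adjusted p = 0.0659).

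Counts of snoRNAs differed by family. Box C/D snoRNAs, which guide ribose methylation, were lower with FU for 20 of 47 and higher for 0. Box H/ACA snoRNAs, which guide pseudouridine formation, were lower for 1 and higher for 3 of 29. Of all features 32.7% were lower, and of those outside genes 55.9%. The lower C/D RNAs were 78 to 136 nt long, the other C/D RNAs 82 to 490 nt and the H/ACA RNAs 161 to 1004 nt. Family and length therefore cannot be fully told apart here. Relative to the median gene the C/D median was -1.33, but FU replicate 1 was at -2.68 and FU replicate 2 at 0.03 against the rrp6 mean, and the H/ACA median of 0.08 was made of -0.40 and 0.82. The snoRNA share of reads was 20.9% in FU replicate 2 and 10.1% in FU replicate 1, and its part in the result was not tested. SNR62, a C/D RNA, stood at 1.96 and 5.21 with FU, 33.0 and 44.3 in rrp6, and 1.18 and 1.82 in wild type (-3.58 ± 0.41, adjusted p = 0.000493). SNR61 was at 5.40 and 11.9 with FU and 62.5 and 74.3 in rrp6 (-3.09 ± 0.38), and SNR56 at 6.77 and 17.6 with FU and 90.5 and 93.0 in rrp6 (-3.07 ± 0.44). Both FU libraries lay far below both rrp6 libraries for all 3 of these RNAs.

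The C/D RNA SNR58, which precedes YOL098C, had the largest fall of the list, at 0.237 and 1.56 with FU and 13.6 and 15.6 in rrp6 (-4.54 ± 0.97, adjusted p = 0.00671), while its neighbour gene did not differ detectably. SNR59, another of them, lies within RPL7B. Its host, which encodes a protein of the large ribosomal subunit, was at 0.793 and 1.37 with FU and 4.43 and 4.62 in rrp6 (-2.11 ± 0.26), and reads of the 2 cannot be told apart. Among H/ACA RNAs, SNR86 was at 104 and 161 with FU, 41.6 and 52.8 in rrp6, and 115 and 187 in wild type (1.47 ± 0.34, adjusted p = 0.00989). SNR84 (1.33 ± 0.35) and SNR191 (1.47 ± 0.42) were also higher, and SNR80 was lower (-1.68 ± 0.48). These 4 calls depended on single libraries. SNR86 lost its call without rrp6 replicate 1 (1.30, adjusted p = 0.0725), SNR84 and SNR191 did so without FU replicate 2 (0.83 and 0.82, adjusted p = 0.0714 and 0.111) or either rrp6 library (adjusted p = 0.0679 to 0.106), and SNR80 did so without FU replicate 1 (-0.85, adjusted p = 0.111) or either rrp6 library (adjusted p = 0.0961 and 0.0968).

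The proteins that act on these RNAs were described as lists, beside the 9.28% of all genes that were lower. The 10 core and catalytic subunits of the exosome other than Rrp6 gave 0 calls, with the most abundant, RRP42 and RRP40, at -0.36 ± 0.18 and -0.08 ± 0.25 (adjusted p = 0.166 and 0.847). In the termination list 4 of 10 genes were lower and 0 higher. NRD1, the RNA-binding subunit that is known to limit its own mRNA by early termination, was at 0.853 and 1.20 with FU, 3.36 and 4.15 in rrp6, and 0.538 and 0.422 in wild type (-1.87 ± 0.24, adjusted p = 0.000730). HRP1, of a cleavage factor, was at 2.73 and 3.51 with FU, 6.003 and 7.11 in rrp6, and 1.97 and 1.75 in wild type (-1.07 ± 0.19). REF2 (-1.02 ± 0.17) and PTI1 (-0.89 ± 0.29), which act in 3′-end formation, were the others. PTI1 lost its call without any 1 of the 4 libraries (-0.74 to -1.05, adjusted p = 0.0632 to 0.166), and with quantile normalization (adjusted p = 0.441). Of 10 pseudouridine synthase genes 1 was lower, PUS2, at 0.352 and 0.235 with FU and 0.496 and 0.736 in rrp6 (-1.04 ± 0.31); without FU replicate 2 it was -0.76 (adjusted p = 0.135) and without rrp6 replicate 2 also -0.76 (adjusted p = 0.195). Of 17 genes of snoRNP proteins and their assembly 2 were lower and 0 higher, NAF1, an assembly factor of H/ACA particles (-0.85 ± 0.19), and RSA1, an assembly factor of C/D particles (-0.59 ± 0.19). Of 7 genes of Rrp6 partners and TRAMP, the complex that tags RNA for the exosome, 1 was lower, AIR2 (-0.83 ± 0.24). NAF1 was not called without rrp6 replicate 2 (-0.76, adjusted p = 0.0668), RSA1 without FU replicate 1 (-0.37, adjusted p = 0.226) or either rrp6 library (adjusted p = 0.150 and 0.152), and AIR2 without FU replicate 2 (-0.59, adjusted p = 0.123) or either rrp6 library (adjusted p = 0.0920 and 0.121). With quantile normalization none of NAF1, RSA1 and AIR2 was called (adjusted p = 0.117 to 0.142). None of the 46 genes of the small subunit processome, which makes the small ribosomal subunit, was called.

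A list drawn up for genes with transcripts cut short by Nrd1 had 4 lower and 1 higher of 9, beside 9.28% of all genes lower and 4.58% higher. The list holds NRD1 and HRP1 as well, both among the lower and already counted in the termination list. Its 1 higher member, PHO84, has CUT281 and XUT0683 on its opposite strand, and whether Nrd1 cuts short its own transcript was not examined. IMD2, an IMP dehydrogenase of GTP synthesis on chromosome 8 (554396 to 555967), was at 0.464 and 0.435 with FU, 2.28 and 3.58 in rrp6, and 0.577 and 0.366 in wild type (-2.64 ± 0.29, adjusted p = 0.000436). Its levels with FU overlapped those in wild type. Its near-identical copy IMD1 was at -3.60, which is uncertain because reads may be split between them. URA8, a CTP synthase, was lower (-1.33 ± 0.42, adjusted p = 0.0351) but lost its call without FU replicate 2 (-0.93, adjusted p = 0.167) or either rrp6 library (adjusted p = 0.0539 and 0.208). PHO84, the phosphate transporter, was higher (0.94 ± 0.24), but not called without FU replicate 1 (0.91, adjusted p = 0.0559) or rrp6 replicate 1 (0.58, adjusted p = 0.112). SER3, a gene of serine synthesis that is known to be silenced by transcription of the upstream SRG1, was at 1.09 and 1.10 with FU, 4.11 and 5.11 in rrp6, and 0.773 and 0.606 in wild type (-2.06 ± 0.18). SRG1, which overlaps it, was lower as well (-1.84 ± 0.31).

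Genes of sugar breakdown were higher with FU. Of 21 genes of glycolysis and fermentation 9 were higher and 2 lower, beside 4.58% of all genes higher and 9.28% lower. Their median was 0.95 above the median gene, at 1.41 in FU replicate 1 and 0.77 in FU replicate 2, and 0.62 with quantile normalization. ENO2, the enolase on chromosome 8 (451327 to 452640), was at 9.67 and 13.5 with FU, 0.750 and 1.39 in rrp6, and 14.9 and 12.3 in wild type (3.47 ± 0.30, adjusted p = 0.000217). TDH3, glyceraldehyde-3-phosphate dehydrogenase, was at 19.7 and 25.6 with FU, 1.86 and 2.79 in rrp6, and 25.7 and 18.3 in wild type (3.30 ± 0.27). In both the rrp6 libraries were the low ones, and FU overlapped wild type. CDC19, pyruvate kinase, followed at 12.6 and 9.28 with FU and 1.79 and 2.58 in rrp6 (2.33 ± 0.29), and PGK1, phosphoglycerate kinase, at 3.85 and 3.41 with FU, 0.552 and 0.955 in rrp6, and 10.2 and 4.10 in wild type (2.30 ± 0.41). FBA1, aldolase, differed by 1.79 ± 0.28. TDH3 and its copy TDH2 are near-identical, so reads may be split between them. The 2 lower genes, PDC5 (-1.09 ± 0.24) and PDC6 (-0.90 ± 0.24), encode minor pyruvate decarboxylases. PDC5 was not called without rrp6 replicate 2 (-0.93, adjusted p = 0.0651), and PDC6 without either FU library or rrp6 replicate 1 (-0.73 to -0.93, adjusted p = 0.0524 to 0.110), and with quantile normalization PDC6 was at 0.06.

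Iron genes moved in the same direction. Of 27 iron uptake and homeostasis genes tested 10 were higher and 2 lower, beside 4.58% of all genes higher and 9.28% lower. Their median was 0.46 above the median gene, and 0.59 with quantile normalization. FET3, a copper oxidase that oxidizes iron for uptake, was at 7.32 and 6.43 with FU, 1.20 and 0.719 in rrp6, and 9.86 and 10.1 in wild type (2.87 ± 0.31, adjusted p = 0.000427). FTR1, its permease partner, was at 4.25 and 3.41 with FU, 1.52 and 1.46 in rrp6, and 4.41 and 4.58 in wild type (1.35 ± 0.17). SIT1, a siderophore transporter, was at 1.22 and 2.34 with FU, 0.354 and 0.304 in rrp6, and 1.45 and 2.21 in wild type (2.32 ± 0.36), and FRE1, a ferric reductase, differed by 1.14 ± 0.24. For these genes the rrp6 libraries were the lowest. ARN2, another siderophore transporter (-0.88 ± 0.21), and ISU1, a scaffold for iron-sulfur clusters (-1.06 ± 0.31), were lower, but without FU replicate 1 or rrp6 replicate 2 ARN2 (-0.73 and -0.72, adjusted p = 0.0607 and 0.0852) and ISU1 (-0.92 and -0.78, adjusted p = 0.114 and 0.182) were not called.

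Other rises named single enzymes and transporters. OLE1, the fatty acid desaturase, was at 44.0 and 21.98 with FU, 4.82 and 4.79 in rrp6, and 38.7 and 21.8 in wild type (2.69 ± 0.34). TIP1, a cell wall mannoprotein, was at 0.265 and 0.305 with FU and 0.0449 and 0.0395 in rrp6 (2.45 ± 0.18). ARO10, a decarboxylase of aromatic amino acid breakdown, was at 2.10 and 1.63 with FU, 0.291 and 0.410 in rrp6, and 0.372 and 0.316 in wild type (2.38 ± 0.24). Its pathway partner ARO9 was at 1.87 and 1.75 with FU, 0.474 and 0.733 in rrp6, and 0.482 and 0.498 in wild type (1.60 ± 0.24). For ARO10 and ARO9, unlike the glycolytic and iron genes named, rrp6 was close to wild type and FU stood alone. PHM6, a gene of the phosphate starvation response, was at 0.624 and 0.659 with FU, 0.196 and 0.179 in rrp6, and 1.98 and 1.58 in wild type (1.71 ± 0.22).

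Further lists were called in 1 direction. Over all genes 4.58% were higher and 9.28% lower. The proteasome, which degrades tagged proteins, had 7 of 33 genes higher and 0 lower, among them RPN8 (0.90 ± 0.16) and PUP2 (0.72 ± 0.15). Ergosterol synthesis had 8 of 26 higher and 0 lower, with ERG11 at 9.43 and 8.39 with FU and 5.01 and 4.76 in rrp6 (0.86 ± 0.14). Targets of Gcn4, the activator of amino acid synthesis, had 6 of 27 higher and 0 lower, with LYS9, of lysine synthesis, at 2.37 and 1.63 with FU and 0.783 and 0.593 in rrp6 (1.51 ± 0.25). Mitochondrial ribosomal proteins, a list added after the values were seen, had 13 of 54 higher and 0 lower. The 36 genes of oxidative phosphorylation and the 26 heat shock genes had 0 calls each. Cytosolic ribosomal protein genes had 5 of 137 lower and 0 higher, below the 9.28% of all genes that were lower, and they include the snoRNA host RPL7B.

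**Figure D4:**
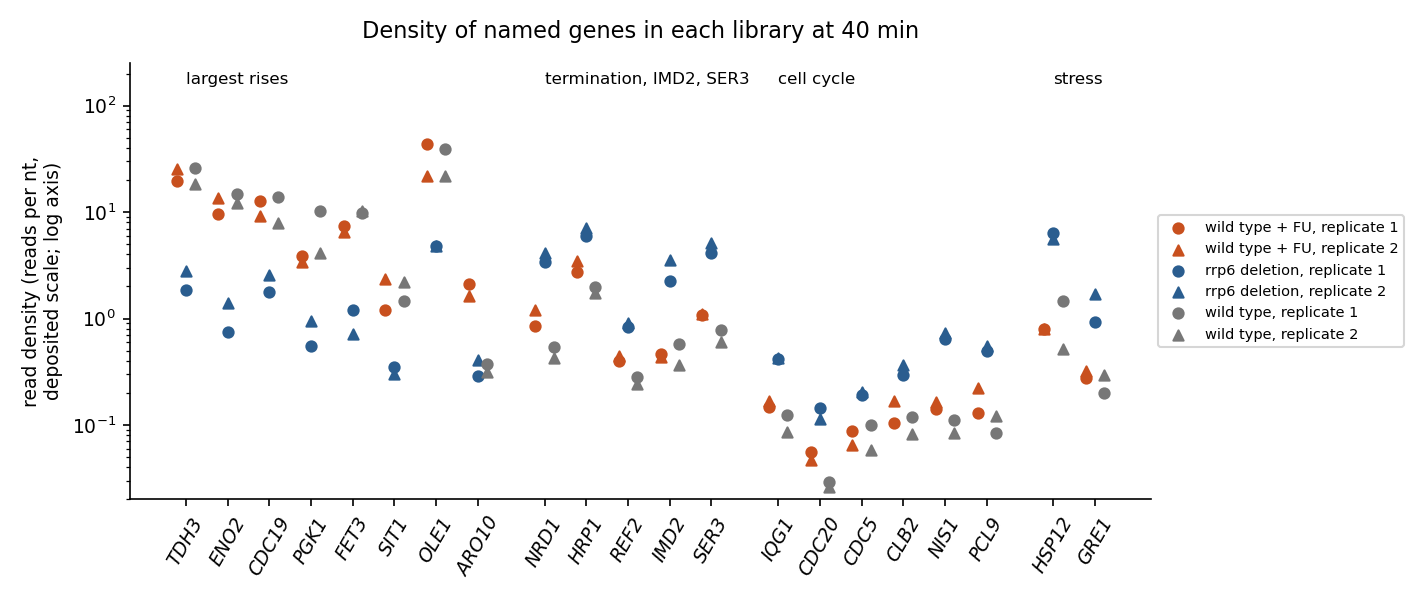
Read density (reads per nt on the deposited scale, log axis) of named genes in each library at 40 min, with wild type with FU in orange, rrp6 in blue and wild type in grey, circles for replicate 1 and triangles for replicate 2. For the glycolytic and iron genes the rrp6 points lie lowest, for ARO10 only the FU points stand high, and for NRD1, IMD2 and SER3 the rrp6 points stand above the other 4.

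Genes of mitosis were lower with FU. Of 23 G2/M genes 14 were lower and 0 higher (median -1.04 relative to the median gene, -0.42 with quantile normalization). Of 27 M/G1 genes 6 were lower and 0 higher, beside 9.28% of all genes that were lower. IQG1, an actomyosin ring protein of cytokinesis, was at 0.149 and 0.167 with FU, 0.417 and 0.426 in rrp6, and 0.125 and 0.0853 in wild type (-1.35 ± 0.22, adjusted p = 0.00181). CDC20, an activator of the anaphase-promoting complex, was at 0.0563 and 0.0464 with FU and 0.143 and 0.114 in rrp6 (-1.14 ± 0.24), and CDC5, the polo kinase, at 0.0881 and 0.0655 with FU and 0.190 and 0.206 in rrp6 (-1.25 ± 0.27). NIS1, a bud neck protein of the M/G1 list, was at 0.141 and 0.164 with FU and 0.636 and 0.732 in rrp6 (-2.08 ± 0.24). IQG1, CDC20 and CDC5 were below the median gene in all 4 of these libraries, and NIS1 was above it in rrp6. In bulk RNA, fewer cells at a stage and less RNA per cell cannot be told apart.

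Of the cyclins, CLB2 was at 0.104 and 0.168 with FU and 0.292 and 0.369 in rrp6 (-1.23 ± 0.27, adjusted p = 0.00779) and CLB1 at -1.47 ± 0.38 (adjusted p = 0.0160), while CLN1 (0.10 ± 0.39), CLN2 (0.21 ± 0.39), CLN3 (0.12 ± 0.52), CLB5 (0.04 ± 0.27), CLB6 (-0.43 ± 0.44) and the inhibitor SIC1 (-0.30 ± 0.31) did not pass the test (adjusted p = 0.499 to 0.934). The calls of CDC20 without rrp6 replicate 1 (-0.99, adjusted p = 0.0561), of CLB2 without rrp6 replicate 2 (-1.07, adjusted p = 0.0649) and of CLB1 without FU replicate 2 (-1.11, adjusted p = 0.0777) or rrp6 replicate 2 (-1.28, adjusted p = 0.104) were lost. With quantile normalization CDC20 (-0.04), CDC5 (-0.31), CLB2 (-0.50) and CLB1 (-0.41) were not called (adjusted p = 0.166 to 0.925).

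Part of the genes of meiosis and of mating were lower with FU. Of 27 genes of meiosis and sporulation tested 10 were lower and 1 higher, and of 23 genes of the pheromone response 9 were lower and 0 higher, beside 9.28% of all genes that were lower. Relative to the median gene their medians were -0.53 and -0.64, and -0.17 and -0.29 with quantile normalization. The median density of the meiosis genes was 0.0232 and 0.0303 with FU and 0.0727 and 0.0587 in rrp6. SPS1, a kinase of spore formation, was at 0.118 and 0.167 with FU, 0.547 and 0.516 in rrp6, and 0.0390 and 0.0733 in wild type (-1.83 ± 0.29), so that in rrp6 it reached the level of the median tested gene. DIT2, of the spore wall, was at 0.0232 and 0.0318 with FU and 0.129 and 0.146 in rrp6 (-1.92 ± 0.28). GPA1, the G protein subunit that couples to the pheromone receptors, was at 0.0583 and 0.0563 with FU and 0.228 and 0.207 in rrp6 (-1.73 ± 0.23), and FUS3, the kinase of the pathway, at 0.0850 and 0.0633 with FU and 0.279 and 0.361 in the rrp6 libraries (-1.95 ± 0.34). The a-specific genes, 7 in number, summed to 0.323 and 0.602 with FU and 0.794 and 0.724 in rrp6, and the 4 alpha-specific genes to 0.250 and 0.342 with FU, against 0.354 and 0.396 in the rrp6 libraries. The one highest density of any a-specific gene was 0.365, below the median of all genes in the table, untested ones included, of 0.427 to 0.513 in these libraries. Of the a-specific genes MFA1 (-1.06 ± 0.27) and ASG7 (-1.34 ± 0.21) were lower; MFA1 was not called without FU replicate 1 (-0.73, adjusted p = 0.0798), rrp6 replicate 1 (adjusted p = 0.0731) or rrp6 replicate 2 (adjusted p = 0.0717). DIT2, MFA1 and ASG7 were not called with quantile normalization (-0.78, -0.37 and -0.41).

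The counts differed with abundance. With genes split into 4 groups of like size by mean density over the 12 libraries, in the group of lowest density 255 of 1432 were lower and 11 higher, and in that of highest density 51 of 1431 were lower and 133 higher. The medians of these 2 groups relative to the median gene, -0.26 and 0.19, changed sign with quantile normalization, to 0.22 and -0.15. Genes without a standard name were lower for 150 (17.9%) and higher for 22 of 839. Genes of at most 300 nt were lower for 58 (21.6%) and higher for 10 of 269, beside 9.28% lower and 4.58% higher over all genes. Among the genes of any length with the largest falls, RRT5, a gene of unsettled function, was at 0.0288 and 0.0235 with FU and 0.506 and 0.406 in rrp6 (-3.61 ± 0.30). YKL183C-A was at 0.0392 and 0.0359 with FU and 0.477 and 0.570 in rrp6 (-3.43 ± 0.27), but it overlaps SUT1880 on its strand. REC104, a gene of meiotic recombination, was at 0.387 and 0.259 with FU and 1.91 and 4.98 in rrp6 (-3.24 ± 0.65).

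HSP12, a small stress protein of membranes, was at 0.800 and 0.802 with FU, 6.31 and 5.64 in rrp6, and 1.46 and 0.518 in wild type (-2.88 ± 0.60, adjusted p = 0.00609). General stress genes as a list had 4 of 34 lower (11.8%) and 0 higher, near the 9.28% of all genes that were lower. Their medians relative to the median gene were 0.52 in FU replicate 1 and -0.81 in FU replicate 2, which lie on opposite sides of 0. GRE1 (-2.02 ± 0.43) lost its call without rrp6 replicate 2 (-1.59, adjusted p = 0.0630).

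Transfer RNAs were the class with more calls higher than lower at 40 min, 11 (3.83%) and 2 of 287. Over all features 2.55% were higher. The 24 mitochondrial tRNAs were higher for 7 (29.2%) and lower for 0, and the 263 nuclear ones higher for 4 (1.52%) and lower for 2. At 100 min the direction was the other, with 3 tRNAs higher and 23 lower and a median of -0.34 relative to the median gene. The mitochondrial tRNAs had 0 calls at 100 min. At 40 min all tRNAs together took 0.0129% and 0.0486% of reads with FU and 0.0175% and 0.0196% in rrp6. Their median relative to the median gene was -0.72 in FU replicate 1 and 1.54 in FU replicate 2, so the nuclear tRNAs had no common direction in the 2 FU libraries, while the mitochondrial tRNAs were at 0.73 and 1.37. The largest rise, tI(UAU)L, was at 1.68 and 8.12 with FU and 0.385 and 0.424 in rrp6 (3.16 ± 0.81); it was not called without FU replicate 2 (2.03, adjusted p = 0.0759), rrp6 replicate 1 (adjusted p = 0.0740) or rrp6 replicate 2 (adjusted p = 0.0678).

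Where wild type lay differed between the 2 directions. Of the 3750 features lower with FU, the wild-type mean was the lowest of the 3 conditions for 3427, and of the 293 higher with FU it was between FU and rrp6 for 211 and the highest for 62. For called genes alone these were 473 of 531, and 193 and 54 of 262. On this scale the median tested gene was itself lower in wild type, at 0.421 and 0.320. It was at 0.522 and 0.436 with FU and at 0.527 and 0.507 in rrp6. The part of the scaling in these positions was not tested, and the same shares over all features were not computed.

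The repeat at 100 min, with other libraries of both conditions, gave 4738 features lower (41.3%) and 384 higher (3.34%), and among genes 939 lower (16.4%) and 365 higher (6.38%). Both times were tested in the same fit and share 1 estimate of the spread per feature, so their calls are not independent. Of the 3750 features lower at 40 min 3402 were lower at 100 min too, which is 90.7% of the list at 40 min and 71.8% of the list at 100 min. Of the 293 higher at 40 min 157 were higher at 100 min, 53.6% and 40.9% of the lists. Across 11485 features the log2 differences at 40 and 100 min correlated with Pearson's r of 0.877, a description in which features are not independent. The glycolytic rises were as large later, with ENO2 at 3.56 ± 0.30 and TDH3 at 3.72 ± 0.27 at 100 min. FET3 was at 1.05 ± 0.31 and OLE1 at 0.79 ± 0.34 (adjusted p = 0.0857) at 100 min, and HSP12 at -0.04 ± 0.60, but none of these 3 differed between the times by the test of that difference (adjusted p = 0.472 to 0.578).

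A test of the difference between the times called 2 features (0.0174%), with 701 at an unadjusted p under 0.05 and 2 called by limma-voom. Both are genes of the response to damaged DNA. RNR2, the small subunit of ribonucleotide reductase on chromosome 10 (392404 to 393603), was at 6.35 and 4.60 with FU and 2.50 and 3.28 in rrp6 at 40 min, and at 29.1 and 39.5 with FU and 1.48 and 2.02 in rrp6 at 100 min. HUG1, an inhibitor of the enzyme on chromosome 13 (158760 to 158966), was at 0.132 and 0.0781 with FU and 0.175 and 0.155 in rrp6 at 40 min, and at 2.98 and 2.48 with FU and 0.273 and 0.265 in rrp6 at 100 min. The FU libraries at 100 min were the only ones high for either gene among these 8. The difference at 40 min minus that at 100 min was -3.37 ± 0.38 for RNR2 (adjusted p = 0.0457) and -3.91 ± 0.39 for HUG1 (adjusted p = 0.0366). Leaving out any 1 of the 8 libraries gave -3.13 to -3.60 for RNR2 (adjusted p = 0.0492 to 0.400, called only without FU replicate 1 at 40 min) and -3.58 to -4.25 for HUG1 (adjusted p = 0.0181 to 0.308, called only without 1 of the FU libraries at 40 min).

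**Figure D5:**
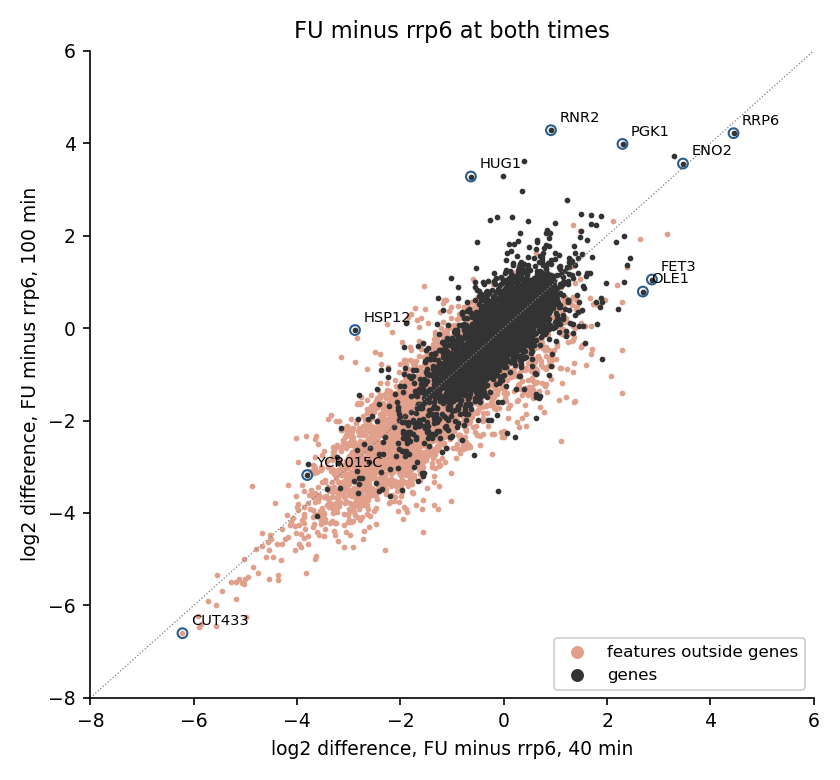
Log2 difference in density, FU minus rrp6, at 100 min against that at 40 min, for genes (dark) and features outside genes (light); the dotted line marks equal values. Most features lie near the line, HUG1 and RNR2 lie far above it, and HSP12 lies at -2.88 at 40 min and -0.04 at 100 min.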

How the data were processed

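Per the labels' protocols, total RNA extracted with hot phenol and depleted of ribosomal RNA was made into stranded libraries and sequenced as read pairs of 50 nt. TopHat is named in the submitters' processing notes, without a version; the counting tool and the genome build were not given in the sources used here. Values as deposited by the authors are a signal, a read density: density times length, divided by 1 factor per library, gave whole reads for 100% of values (tolerance 0.001), and the factors set the reads over genes to 14370740 in every library. Start and end equal those of R64 for 5757 of 5789 matched genes.

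The log2 of each density plus 0.0120173 was used (the pseudocount is the 10th percentile of the values above 0), which understates differences of low features. Features at or above it in at least 2 of 12 libraries were kept (11485; 541 were not). limma 3.58.1 in R 4.3.3 was fitted with 1 mean per group over all 12 libraries, with a variance trend (6 residual degrees of freedom, prior median 3.14) and two-sided moderated tests, and p-values were adjusted by Benjamini-Hochberg over all features kept, 0.05 being the threshold. With 2 libraries a side, precision is set by the spread between replicates more than by depth, except for features with few reads. On simulated data with 11516 features, the fit recovered 98 of 100 genes changed by a factor of 4 and 15 of 100 changed by a factor of 2, with 5 false calls. The simulation gave all features the same dispersion and changed only genes with many reads, in random directions. It did not copy the real spread between replicates or the mostly downward differences, so the 5 false calls are no error rate for the real comparison. Tables and figures used Python 3.11.15, pandas 2.3.3, NumPy 2.4.6, SciPy 1.17.1 and matplotlib 3.10.9.

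The comparison and the 54 gene lists (5 names had no match) were chosen with earlier results of these data known. Lists are described by counts and medians, with no test of a list. Genes were named by rule: RRP6, the largest differences among calls whose libraries do not overlap, the called members of each list with the smallest adjusted p, and the cyclins; the text prints some of these. Genes behind snoRNAs, SNR58 and the genes set against them were chosen after their values were seen. Alternatives were another pseudocount, no filter or a stricter one, median of ratios and quantile scaling, fewer libraries in the fit, no variance trend, limma-voom on recovered reads, the replicate number as a block, and each library left out.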

Additional observations from a re-analysis of the deposited data

Results flagged for a closer look

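The difference between FU and rrp6 was not the same at 40 and 100 min for RNR2, by -3.37 on the log2 scale, and for HUG1, by -3.91 (40 min minus 100 min; limma adjusted p = 0.0457 and 0.0366 over all features). Both genes were high in the 2 FU libraries at 100 min.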

How the results depend on the processing

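Of 169 called features that the naming rule gives or the text discusses, 84 stayed called in every fit that left out 1 of the 4 libraries at 40 min. At 40 min, 61 of 293 features called higher and 1857 of 3750 called lower (536 of them CUTs) did so.

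With quantile normalization 1557 features were higher and 1399 lower at 40 min (genes 1246 and 149, CUTs 526 lower), 2156 and 1741 at 100 min. With the 4 libraries alone 66 and 2177 were called (genes 57 and 208), and with the 6 at 40 min 76 and 2231 (genes 68 and 219). Median of ratios gave 590 higher at 100 min. The difference between times had 12 calls with a pseudocount 10 times larger, 0 with one 0.1 times as large or quantile normalization, and 1 without the variance trend. Each library left out gave, at 40 min, 90 to 331 higher and 2150 to 3798 lower (genes 85 to 223 and 220 to 401, CUTs 559 to 826 lower); at 100 min, 145 to 260 and 3047 to 3732; and 0 to 10 calls between times.

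The replicate number does not pair the libraries by the labels; at 40 min, deviations of equal numbers correlated at 0.177 between FU and rrp6, 0.869 between FU and wild type and 0.202 between rrp6 and wild type, and over all pairs of groups at -0.356 to 0.869. With this replicate block 413 features were higher and 4148 lower, and 1 feature was called between times, HUG1 (adjusted p = 0.00676), but not RNR2 (adjusted p = 0.0866).

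Signs turned for NUP188 (median of ratios 0.054, quantile 0.11), YOL098C (0.00023 with the larger pseudocount, 0.11, 0.14), RRP40 (median of ratios 0.029), and with quantile normalization PDC6 (0.059), CLB6 (0.63), SIC1 (0.12) and HUG1 at 40 min (0.32). With 1 library left out the ranges crossed 0 for YOL098C (-0.23 to 0.22), RRP40 (-0.38 to 0.22), CLN1 (-0.23 to 0.42), CLN2 (-0.025 to 0.44), CLN3 (-0.64 to 0.87), CLB5 (-0.067 to 0.14) and CLB6 (-0.89 to 0.024), all uncalled. The cause was not tested. Low features, MUTs above all, are limited by depth.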
